A study of Mus musculus with 3 samples.

Results

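The contractile unit of heart muscle, the sarcomere, was followed through 33 genes in single cells of the mouse heart, out of 32285 genes counted. The 33 were taken as a fixed list of names: 8 thin filament genes, 5 thick filament genes, 3 genes of titin and the M-band, 9 Z-disc genes, desmin and filamin C, and 6 genes of muscle stress. Their symbols were found in the files without exception. Hearts came from male C57/B6J mice of 3 genotypes, with 1 library of total heart cells each: Myh6-R404Q, Prkag2-p.R299Q and WT. Myh6-R404Q is a point mutation in the alpha myosin heavy chain, the motor of the adult mouse thick filament. Prkag2-p.R299Q is a point mutation in a regulatory subunit of AMP-activated protein kinase, the energy sensor of the cell. The sources used here do not give zygosity, age or the number of animals pooled per library. A point mutation need not alter a count of transcript ends, so the counts do not check the genotype labels.

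In a sarcomere, thick filaments of myosin slide along thin filaments of actin, and troponin and tropomyosin switch the thin filament on when calcium rises. Thin filaments are anchored in the Z-disc, thick filaments are cross-linked at the M-band, and the giant protein titin runs from one to the other. Z-disc and intercalated disc proteins also carry strain signals to the nucleus, and genes such as Ankrd1 and Acta1 are widely used as markers of a heart under load. Dominant mutations of sarcomere genes are the classic cause of hypertrophic cardiomyopathy, while Prkag2 mutations thicken the heart together with glycogen storage.

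The libraries held 12662 barcodes and 38251499 UMIs (unique molecular identifiers, 1 per captured transcript) for Myh6-R404Q, 7951 barcodes and 31385005 UMIs for Prkag2-p.R299Q, and 18033 barcodes and 41047991 UMIs for WT. The Myh6-R404Q library was identified by elimination, as the barcodes of its deposited matrix that repeat neither other file, and no label in the matrix names their genotype. Libraries shared between 28 and 51 barcode sequences in pairs. After filters and doublet removal 10498, 6839 and 14851 cells remained, with median depths of 1850, 2347 and 1416 UMIs. Cells were clustered without the 33 genes. Cardiomyocyte-like cells, defined by other markers, numbered 1461 for Myh6-R404Q, 1204 for Prkag2-p.R299Q and 2538 for WT. All 15 cardiomyocyte markers were detected in each library, and 3 of 5 atrial markers were too, at a summed 26.7, 127 and 25.9 CPM, with Sln and Bmp10 at 0 as in most other classes. With 1 library per genotype there is no replicate check and no test between genotypes. Intervals below are 95% intervals that cover counting error only.

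Upstream sequence is shown for 4 genes, because Acta1, Actc1 and Ankrd1 differ between cardiomyocyte subsets as described below, and Myl7 stood highest in mesothelial-like cells. Each run is the 250 bases before the RefSeq start of the gene, 5′ to 3′ on the gene's own minus strand, in build GRCm38.p6. Capitals mark the CArG box, the binding site of serum response factor, and the MCAT element CATTCC on either strand, the binding site of TEAD factors. The windows are chr8:123894776-123895025 for Acta1, chr2:114052876-114053125 for Actc1, chr19:36119845-36120094 for Ankrd1 and chr11:5898783-5899032 for Myl7.
Acta1: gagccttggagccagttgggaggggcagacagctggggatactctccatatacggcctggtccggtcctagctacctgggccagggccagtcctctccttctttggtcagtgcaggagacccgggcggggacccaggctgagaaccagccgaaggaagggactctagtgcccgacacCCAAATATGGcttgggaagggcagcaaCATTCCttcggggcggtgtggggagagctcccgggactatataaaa
Actc1: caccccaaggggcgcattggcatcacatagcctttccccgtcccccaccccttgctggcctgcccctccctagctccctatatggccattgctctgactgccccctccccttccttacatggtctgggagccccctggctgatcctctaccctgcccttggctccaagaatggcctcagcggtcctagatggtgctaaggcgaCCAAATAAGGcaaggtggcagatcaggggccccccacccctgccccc
Ankrd1: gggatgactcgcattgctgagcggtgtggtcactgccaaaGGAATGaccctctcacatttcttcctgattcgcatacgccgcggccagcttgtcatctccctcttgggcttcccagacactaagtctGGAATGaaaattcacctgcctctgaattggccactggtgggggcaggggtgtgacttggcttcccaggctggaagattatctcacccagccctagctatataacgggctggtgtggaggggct
Myl7: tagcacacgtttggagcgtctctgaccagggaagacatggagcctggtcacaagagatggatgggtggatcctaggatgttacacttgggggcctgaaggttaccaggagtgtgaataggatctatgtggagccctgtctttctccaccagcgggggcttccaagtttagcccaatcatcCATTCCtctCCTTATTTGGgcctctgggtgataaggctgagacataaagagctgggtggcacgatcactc

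In Acta1 the CArG box begins 73 bases and the MCAT element 46 bases before the start. In Actc1 the CArG box begins at 47 bases, in Myl7 at 61 bases with the MCAT element at 70 bases, and Ankrd1 holds the MCAT element on the reverse strand at 210 and 123 bases. Of 42 upstream windows of the 30 members found in the RefSeq table, 10 (23.8%) held a CArG box, against 1.47% of all 32851 windows. The MCAT element stood in 11 of the 42 (26.2%), against 12.6% of all windows. The 8 members with a CArG box were Actc1, Acta1, Myl3, Myl7, Myom1, Ldb3, Nebl and Fhl2. Of those measured in cardiomyocyte-like cells, as defined below, Myl3 was at least 1.5-fold higher and Acta1 as much lower in Myh6-R404Q than in WT. Among all measured genes 7.66% were as much higher and 3.07% as much lower. None of these members was past 1.5-fold of WT in Prkag2-p.R299Q. Myl3 and Acta1 were at or below their endothelial-like level in each library. A match is a description of these letters and not a measured binding site.

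Across cardiomyocyte-like cells the 33 genes together made up 5.26% of UMIs in the Myh6-R404Q library, 5.61% in the Prkag2-p.R299Q library and 5.77% in WT. Values per gene are UMIs scaled to the class total (CPM), and a gene counts as measured with a mean of at least 10 CPM over the 3 libraries, which 31 of the 33 reached. In Myh6-R404Q, 5 of the 31 were at least 1.5-fold higher than in WT (Lmod2, Myl2, Myl3, Myom2, Tcap) and Acta1 was at least 1.5-fold lower. Among all 8738 measured genes 7.66% were as much higher and 3.07% as much lower. In Prkag2-p.R299Q, 4 of the 31 were at least 1.5-fold higher than in WT (Lmod2, Myom2, Tcap, Ankrd1), where 2.72% of all measured genes were. None of the 31 was as much lower, against 4.17% of all genes. The median log2 ratio of the 31 to WT was -0.065 for Myh6-R404Q and 0.04 for Prkag2-p.R299Q, beside 0.074 and -0.056 for all measured genes. Both comparisons share the WT library. The plot of ratios by role shows which members left the range within 1.5-fold.

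**Figure D1:**
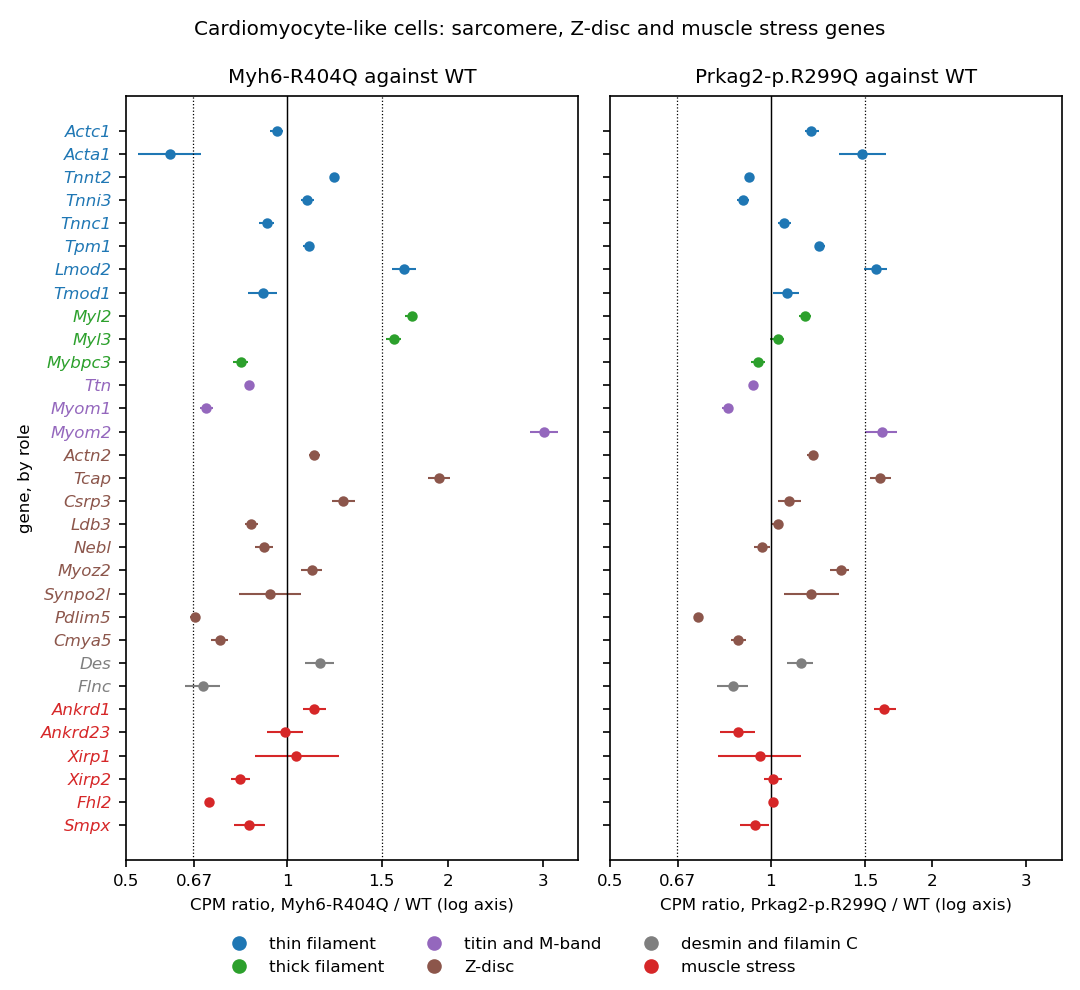
Ratio of CPM in cardiomyocyte-like cells to WT for the 31 measured genes, Myh6-R404Q on the left and Prkag2-p.R299Q on the right, on a log axis with exact 95% counting intervals. Dotted lines mark 1.5-fold in either direction; Myom2 at 3.02 in Myh6-R404Q lies farthest out.

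Among thin filament genes, the cardiac actin Actc1 was at 1115 CPM in Myh6-R404Q and 1394 CPM in Prkag2-p.R299Q, against 1167 CPM in WT. The skeletal actin Acta1 (chromosome 8, 123891769 to 123894751, mm10), an actin form of the fetal heart, was at 40.7 CPM in Myh6-R404Q and 100 CPM in Prkag2-p.R299Q, against 67.5 CPM in WT. The Acta1 ratio to WT was 0.603 (0.525 to 0.691) for Myh6-R404Q and 1.48 (1.34 to 1.64) for Prkag2-p.R299Q. Across the class the mutants thus lay on opposite sides of WT. These class levels were at or below the Acta1 level of endothelial-like cells in each library. In cardiomyocyte subset 1, described below, both mutants were below WT, at ratios of 0.498 and 0.716. Prkag2-p.R299Q stood 2.46-fold above Myh6-R404Q for Acta1, where 1.48% of all measured genes were at least 1.5-fold higher. The leiomodin Lmod2, which promotes thin filament growth at the pointed end, was at 441 and 418 CPM in the mutants against 267 CPM in WT. Lmod2 was thus 1.65-fold (1.57 to 1.74) and 1.57-fold (1.49 to 1.65) the WT level. Its counterpart Tmod1, the cap of the pointed end, was at 219, 260 and 244 CPM. The troponin subunits Tnnt2, Tnni3 and Tnnc1 and tropomyosin Tpm1 had ratios to WT of 0.916 to 1.22 for Myh6-R404Q, and of 0.888 to 1.23 for Prkag2-p.R299Q.

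The ventricular myosin light chains differed in Myh6-R404Q. The regulatory chain Myl2 was at 1976 CPM in Myh6-R404Q and 1342 CPM in Prkag2-p.R299Q, against 1158 CPM in WT. The essential chain Myl3 was at 1337 CPM in Myh6-R404Q and 870 CPM in Prkag2-p.R299Q, against 846 CPM in WT. Their ratios to WT were 1.71 (1.66 to 1.75) and 1.58 (1.53 to 1.63) in Myh6-R404Q, and 1.16 and 1.03 in Prkag2-p.R299Q. Myl3 in Prkag2-p.R299Q was 0.65 times its level in Myh6-R404Q, beside 6.84% of all measured genes that were at least 1.5-fold lower. Myosin binding protein C, Mybpc3, was at 802 and 928 CPM in the mutants and 980 CPM in WT. The atrial light chains Myl4 and Myl7 did not reach 10 CPM in any library.

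Myom2, the M-protein of the M-band (chromosome 8, 15057653 to 15133541), showed the largest ratio among the 31 genes. Myom2 was at 455 CPM in Myh6-R404Q and 242 CPM in Prkag2-p.R299Q, against 151 CPM in WT, which is 3.02-fold (2.84 to 3.21) and 1.61-fold (1.5 to 1.72) the WT level. Its relative Myom1, which bridges myosin filaments in the same band, lay on the other side of WT, at 1077 and 1267 CPM in the mutants against 1526 CPM in WT. Titin itself was at 20269 and 22092 CPM in the mutants against 23891 CPM in WT. Of the genes of this band, Myom2 was above and Myom1 below WT in both mutant libraries.

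At the Z-disc, telethonin (Tcap, chromosome 11, 98383811 to 98384953), which ties a pair of titin molecules together, was at 602 CPM in Myh6-R404Q and 503 CPM in Prkag2-p.R299Q, against 314 CPM in WT. These are 1.92-fold (1.83 to 2.01) and 1.6-fold (1.53 to 1.68). The LIM domain protein Pdlim5 was at 2401 and 2615 CPM in the mutants against 3578 CPM in WT, ratios of 0.671 (0.659 to 0.683) and 0.731 (0.719 to 0.743). Cmya5, a large costamere protein, was at 606 and 705 CPM against 812 CPM in WT. The calcineurin-binding Myoz2 was at 465 and 565 CPM against 420 CPM in WT. Actn2, the alpha-actinin that cross-links Z-disc actin, and the muscle LIM protein Csrp3 had ratios between 1.08 and 1.27 across the pair of mutants. Ldb3, Nebl and Synpo2l had ratios between 0.857 and 1.19. Of the intermediate filament gene Des and the actin cross-linker Flnc, Des was at 259 and 255 CPM against 225 CPM in WT, and Flnc at 137 and 167 CPM against 197 CPM in WT.

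Among the stress genes, Ankrd1 (chromosome 19, 36111961 to 36120099), a titin-binding ankyrin repeat protein that also enters the nucleus, was at 358 CPM in Myh6-R404Q and 520 CPM in Prkag2-p.R299Q, against 319 CPM in WT. The Ankrd1 ratio to WT was 1.12 (1.07 to 1.18) for Myh6-R404Q and 1.63 (1.56 to 1.71) for Prkag2-p.R299Q. Its relative Ankrd23 was at 156, 137 and 158 CPM. Fhl2, a LIM-only protein of the sarcomere and nucleus, was at 6018 CPM in Myh6-R404Q and 8535 CPM in Prkag2-p.R299Q, against 8426 CPM in WT, ratios of 0.714 (0.706 to 0.722) and 1.01. The intercalated disc genes Xirp1 and Xirp2 and the small muscle protein gene Smpx had ratios between 0.816 and 1.04. The median log2 ratio of the 6 stress genes was -0.12 for Myh6-R404Q and -0.028 for Prkag2-p.R299Q.

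A list of 45 further sarcomere and Z-disc genes gave the setting, of which 38 were measured. In Myh6-R404Q, Trim63 (1.57) and Neb (1.94) were at least 1.5-fold higher and Unc45b (0.574) as much lower than in WT, and in Prkag2-p.R299Q Lmod3 (1.56) and Neb (1.57) were higher and none lower. Among the most abundant were Myh6 (12721 and 14246 CPM in the mutants, 12797 CPM in WT), Dmd (8230, 9621 and 11621 CPM) and Rbm20 (3998, 4127 and 3679 CPM). No measured gene of the list passed 2-fold in either mutant, and the median log2 ratios were -0.051 and -0.035. Of 20 immediate early genes 11 were measured, with median log2 ratios of -0.15 and -0.42, and of 14 heat shock genes 12, with medians of -0.20 and -0.33. Across the class these lists, which can respond to tissue dissociation, had medians below WT in both mutants. In subset 3, described below, the heat shock list summed to 3220 CPM in Myh6-R404Q, 4133 CPM in Prkag2-p.R299Q and 2768 CPM in WT. There the immediate early list summed to 527, 493 and 572 CPM. The part of these lists in the results was not tested.

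Shares of cells with a UMI were compared after each cell was thinned to 1000 UMIs, which left 1225, 1033 and 1935 cardiomyocyte-like and 1454, 788 and 1759 endothelial-like cells of Myh6-R404Q, Prkag2-p.R299Q and WT. Myom2 was seen in 35.0% of Myh6-R404Q cells, 22.7% of Prkag2-p.R299Q cells and 13.6% of WT cells (70.1, 60.5 and 32.8% unthinned), and in 14.5, 7.99 and 8.47% of thinned endothelial-like cells, which should lack it. Tcap was seen in 45.9, 40.6 and 28.8% of thinned cardiomyocyte-like cells (79.7, 84.2 and 58.5% unthinned) against 21.8, 22.5 and 29.5% of endothelial-like cells, so that its WT share was not above this background. Lmod2 (33.4, 33.4 and 22.5%, or 70.1, 76.6 and 50.4% unthinned) stood above its endothelial shares of 8.87, 9.64 and 7.73%. Acta1 was seen in 4.82, 10.3 and 6.51% of cardiomyocyte-like cells (12.9, 26.2 and 18.0% unthinned) and 4.75, 9.64 and 9.95% of endothelial-like cells, shares at or near background. Median depths before thinning were 4622, 6177 and 3159 UMIs in cardiomyocyte-like and 1316, 1622 and 1103 UMIs in endothelial-like cells.

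Cardiomyocyte-like cells were not uniform, and the libraries sampled their subsets unequally. Subset 1 held deep cells with low mitochondrial share led by genes of long span such as Fgf13 and Ctnna3, with 788 Myh6-R404Q cells, 561 Prkag2-p.R299Q cells and 514 WT cells. Subset 2 was similar but shallower and came mostly from WT (112, 244 and 1003 cells). Subset 3 held shallow cells with a median of 1142 UMIs, rich in mitochondrial transcripts and led by Mb, Myl2, Myl3 and Fabp3 (343, 269 and 433 cells). Subset 4 (185, 104 and 502 cells) was led by endothelial genes such as Flt1, and subset 5 (33, 26 and 86 cells) had the highest doublet scores. Subset 1 gave 72.1% of the cardiomyocyte UMIs of Myh6-R404Q and 66.7% of those of Prkag2-p.R299Q, against 36.6% in WT, so comparisons were repeated within subsets.

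Within subsets 1 to 4, 6 of the 31 genes had a level above WT beyond counting error in each subset of Myh6-R404Q: Tnnt2, Lmod2, Myl2, Myl3, Myom2 and Tcap. Ldb3, Pdlim5 and Fhl2 were below WT in each. Of all 8738 measured genes, 1.57% were so placed above and 1.67% below. Such counts depend on depth, and the median level was 647 CPM for the members and 34.1 CPM for all genes, so the shares are not on an equal footing. In subsets 1 and 2, Myl2 and Myl3 were at or below their endothelial-like level in each library, and Tcap was so in WT. The part of this background in the ratios was not tested. The Myom2 ratio was 2.68, 2.17, 3.56 and 3.87 in subsets 1 to 4 of Myh6-R404Q. In Prkag2-p.R299Q, Tpm1, Lmod2, Myom2, Actn2 and Tcap were above WT in each of the 4 subsets (0.458% of all genes) and Pdlim5 below (1.73%). The Tcap ratio was 1.81, 1.56, 1.7 and 1.72 there. Above WT in one subset and below it in another were 7 of the 31 genes in Myh6-R404Q (1.98% of all genes) and 16 in Prkag2-p.R299Q (4.06%), as the map of ratios by subset shows.

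**Figure D2:**
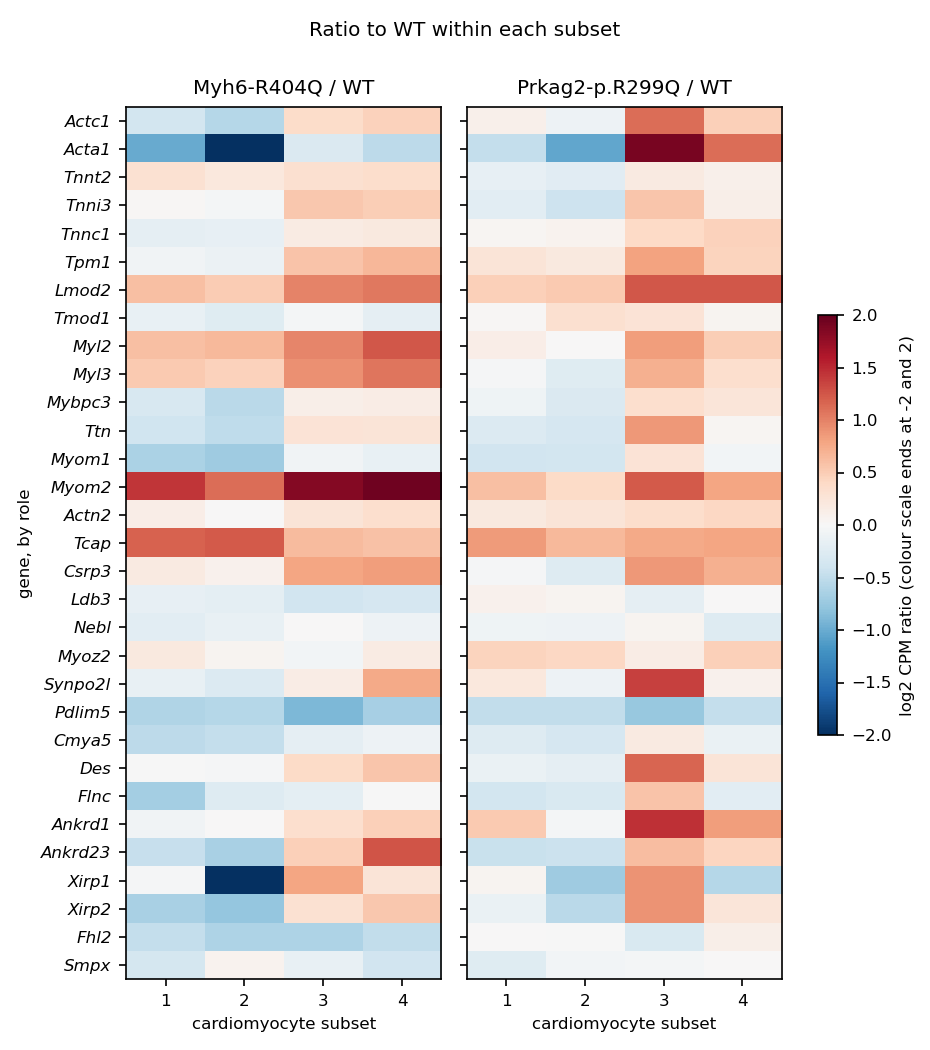
Log2 CPM ratio to WT of the 31 measured genes (rows, by role) in cardiomyocyte subsets 1 to 4 (columns), Myh6-R404Q on the left and Prkag2-p.R299Q on the right; red is higher and blue lower than WT. Myom2 and Tcap are red and Pdlim5 blue in each column, while Acta1 in Prkag2-p.R299Q turns from blue in subsets 1 and 2 to red in subsets 3 and 4.

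In subset 3, 16 of 31 genes were at least 1.5-fold higher in Prkag2-p.R299Q than in WT and only Pdlim5 was as much lower, where 13.9% and 22.5% of all 9244 measured genes were. The median log2 ratio of the 31 was 0.62, against -0.14 for all genes. The 15 cardiomyocyte markers, none of them members, summed there to 70425 CPM in Myh6-R404Q, 86334 CPM in Prkag2-p.R299Q and 63768 CPM in WT. In subset 1 their sums were 55492, 60933 and 66628 CPM. A higher level in subset 3 of Prkag2-p.R299Q was thus not particular to the members. Subset 3 was not the same mix of cells in each library. A finer fraction described below, drawn mostly from subset 3, held 121 Myh6-R404Q, 127 Prkag2-p.R299Q and 38 WT cells. Within it 8 of the 31 were at least 1.5-fold higher in Prkag2-p.R299Q, beside 21.4% of all genes. The median log2 ratio of the 31 in that fraction was 0.38, against -0.12 for all genes. The part of this mix in the 16 was not tested. In Myh6-R404Q the counts in subset 3 were 7 higher and 2 lower, beside 14.6% and 13.5% of all genes. Set against Myh6-R404Q, Prkag2-p.R299Q had 8 genes higher and Myom2 lower in subset 3, beside 8.48% and 19.9% of all genes. In subset 1 of Prkag2-p.R299Q only Myom2 and Tcap were at least 1.5-fold higher (5.03% of all genes) and none lower (3.42%). In subset 1 of Myh6-R404Q, Lmod2, Myl2, Myom2 and Tcap were higher (11.2%) and Acta1, Myom1, Pdlim5, Flnc and Xirp2 lower (3.12%). Between the mutants in subset 1, Ankrd1 was higher (1.72%) and Myom2 lower (7.98%) in Prkag2-p.R299Q than in Myh6-R404Q. In subset 2, with 112 Myh6-R404Q cells, 3 genes were higher and 6 lower in Myh6-R404Q than in WT (18.8% and 10.7% of all genes), and in Prkag2-p.R299Q Tcap was higher (5.94%) and Acta1 and Xirp1 lower (9.82%). Between the mutants 3 were higher (9.54%) and 3 lower (22.3%) there.

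The 16 genes of subset 3 in Prkag2-p.R299Q spanned the roles. Acta1 was at 169 CPM in Myh6-R404Q and 767 CPM in Prkag2-p.R299Q, against 206 CPM in WT. Its ratio to WT was 0.819 (0.644 to 1.04) for Myh6-R404Q and 3.72 (3.08 to 4.51) for Prkag2-p.R299Q. Ankrd1 was at 801 CPM in Myh6-R404Q and 1755 CPM in Prkag2-p.R299Q, against 638 CPM in WT, ratios of 1.26 and 2.75 (2.46 to 3.08). Synpo2l, which stabilises actin at the Z-disc, was at 174 CPM in Prkag2-p.R299Q against 67.3 CPM in WT (2.59-fold), Des at 1221 against 543 CPM (2.25-fold) and Actc1 at 5899 against 2727 CPM (2.16-fold). Xirp2 and titin were 1.87-fold and 1.83-fold higher. The summed atrial marker list moved with these genes, at 136 CPM in Myh6-R404Q and 1177 CPM in Prkag2-p.R299Q, against 171 CPM in WT. It rested on Nppa, the atrial natriuretic peptide gene that ventricles also make under load (135, 1174 and 159 CPM), while Sln and Bmp10 stayed at 0, and its part in the result was not tested.

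**Figure D3:**
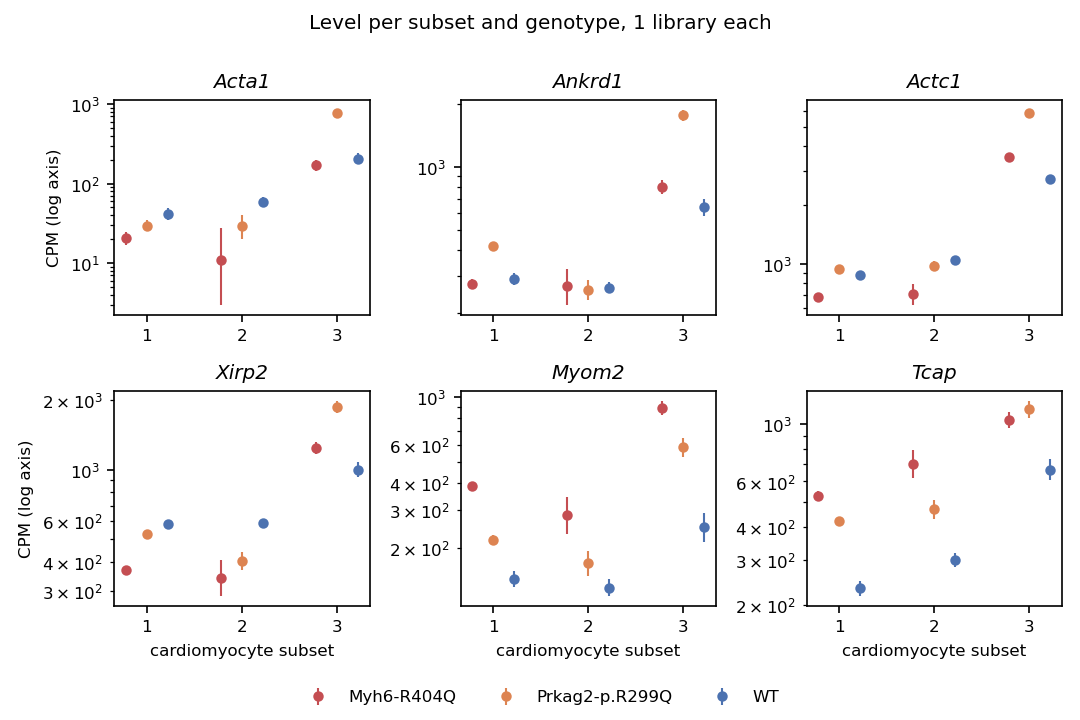
CPM on a log axis of Acta1, Ankrd1, Actc1, Xirp2, Myom2 and Tcap in cardiomyocyte subsets 1 to 3 for Myh6-R404Q, Prkag2-p.R299Q and WT, left to right within each subset, with exact Poisson 95% intervals. In subset 3 Acta1 and Ankrd1 stand highest in Prkag2-p.R299Q (767 and 1755 CPM), whereas Myom2 is highest in Myh6-R404Q in each subset.

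The Acta1 and Ankrd1 molecules were unevenly spread over cells. In subset 3, 19.2% of Myh6-R404Q cells and 42.8% of Prkag2-p.R299Q cells had an Acta1 UMI, against 20.1% of WT cells. In the Prkag2-p.R299Q library 10 cells held 45.7% of its 488 UMIs. Without the 10 cells of most Acta1 UMIs in each library, the level was 447 CPM in Prkag2-p.R299Q against 143 CPM in WT, a ratio of 3.13. For Ankrd1, 10 cells held 44.3% of UMIs in Prkag2-p.R299Q and 41.1% in WT, and the ratio without them was 2.74. Part of subset 3 also differed in makeup: a finer clustering split off a fraction of 121 Myh6-R404Q, 127 Prkag2-p.R299Q and 38 WT cells, led by Mb, Atp5b and Slc25a4. Within that fraction Acta1 was at 892 CPM in Prkag2-p.R299Q against 323 CPM in WT (2.76-fold, 2.01 to 3.88), and Ankrd1 at 2049 against 1393 CPM (1.47-fold, 1.25 to 1.73). There 7 of 31 genes were at least 1.5-fold higher and 2 lower in Myh6-R404Q than in WT, beside 24.8% and 24.9% of all genes. In Prkag2-p.R299Q 8 were higher and 1 lower, beside 21.4% and 29.2%, and the counts of higher genes lie near that background. Myom2 in Myh6-R404Q was 3.35-fold above WT in the same fraction (2.49 to 4.59).

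Acta1 lay below WT in subsets 1 and 2 of both mutants. In subset 1 it was at 20.6 CPM in Myh6-R404Q and 29.6 CPM in Prkag2-p.R299Q, against 41.4 CPM in WT, a ratio of 0.498 and 0.716. Acta1 was also counted in fibroblast-like cells, which should lack it, at 26.9 and 41.6 CPM in the mutants and 54.6 CPM in WT. The subset 1 level was below the fibroblast level in each library, and the part of background in it was not tested. Actc1, Tnni3, Myl2, Myl3 and Des, like Acta1, were at or below their endothelial-like level in subset 1 of each library. In subset 3 Acta1 was above both the fibroblast level and the endothelial level (51.1, 119 and 121 CPM) in each library.

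Subset 3 carried a different balance of the genes from subset 1. Of the 31 measured genes, 19 in the Myh6-R404Q library, 20 in the Prkag2-p.R299Q library and 14 in WT were at least 1.5-fold higher in subset 3 than in subset 1, where 23.2%, 27.5% and 26.3% of all genes were. As much lower were 1, 2 and 0 of them, against 14.9%, 26.0% and 9.10% of all genes. The ratio was 8.2, 25.9 and 4.99 for Acta1, 5.35, 6.77 and 4.11 for Myl3 and 4.02, 7.48 and 3.05 for Des. Fhl2 (0.677, 0.608 and 0.746) and Pdlim5 (0.629, 0.646 and 0.774) were lower in subset 3. Genes of short span tended to have high ratios. Spearman's rho between the ratio and the span over 31 genes was -0.56 for Myh6-R404Q, -0.62 for Prkag2-p.R299Q and -0.71 for WT, and the genes share library and depth. There were exceptions, such as Xirp2 with 80613 bases (3.36, 3.55 and 1.73) and Tnnc1 with 3418 bases (1.5, 1.51 and 1.18). The subsets were found from these same cells, so the ratios are a description without a test.

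**Figure D4:**
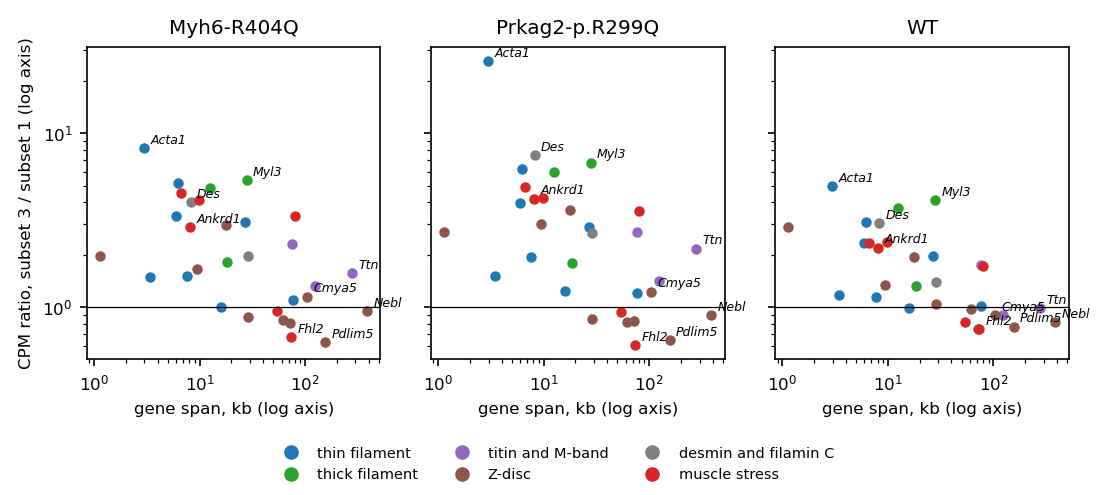
CPM ratio of subset 3 to subset 1 against the genomic span of the gene in kb, both on log axes, for Myh6-R404Q, Prkag2-p.R299Q and WT, 1 point per gene coloured by role. Short genes such as Acta1 tend to lie high and long genes such as Pdlim5 and Nebl near or below 1, with exceptions such as Xirp2.

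The 33 genes were also counted outside cardiomyocytes, where their summed share of UMIs was lower in each cell class compared. Single members were not low in each class, as described below. Free RNA can give such counts in droplet data, and its part was not tested. Together the 33 genes made up 0.777% of the UMIs of fibroblast-like cells of Myh6-R404Q, 0.533% of those of Prkag2-p.R299Q and 0.91% in WT. The shares were 1.12, 0.885 and 1.36% in macrophage-like cells, 2.02, 1.9 and 2.04% in endothelial-like cells, 1.73, 1.2 and 1.55% in pericyte-like cells and 0.951, 0.669 and 1.25% in lymphatic endothelial-like cells. The share was lowest in Prkag2-p.R299Q in each of the 7 named classes compared. The 15 cardiomyocyte markers, none of them members, also summed lowest in Prkag2-p.R299Q in each of these. In Myh6-R404Q, Prkag2-p.R299Q and WT they were at 6923, 5287 and 8234 CPM in fibroblast-like cells. Sums were 10117, 8135 and 11797 CPM in macrophage-like and 14821, 14372 and 14839 CPM in endothelial-like cells. A low level in Prkag2-p.R299Q was thus not particular to the members. In fibroblast-like cells 18 of 30 measured genes were at least 1.5-fold lower in Prkag2-p.R299Q than in WT and none higher, against 5.68% and 5.10% of all genes. In macrophage-like cells the counts were 17 of 31 lower and none higher, against 10.0% and 5.75%. As much lower in Prkag2-p.R299Q than in WT were 21 of 31 in endocardial-like (13.6% of all genes), 23 of 30 in lymphatic endothelial-like (13.4%), 13 of 32 in mesothelial-like (5.51%) and 8 of 31 in pericyte-like cells (11.2%), but 2 of 31 in endothelial-like cells (4.99%). Counts in Myh6-R404Q against WT were 7 of 30 lower in fibroblast-like (5.17% of all genes), 9 of 31 in macrophage-like (8.57%), 8 of 31 in endocardial-like (8.52%), 11 of 30 in lymphatic endothelial-like (10.0%), 16 of 32 in mesothelial-like (5.21%), 6 of 31 in pericyte-like (9.37%) and 5 of 31 in endothelial-like cells (4.88%). An unnamed cluster, numbered 4, differed from this order, with member shares of 1.36, 1.31 and 1.29%, and 3 of 30 genes lower in Myh6-R404Q (7.76%) and 2 of 30 in Prkag2-p.R299Q (12.5%). In unnamed cluster 6, 10 of 30 were lower in Myh6-R404Q (6.87%) and 18 of 30 in Prkag2-p.R299Q (6.13%).

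The background had its own composition. Relative to the cardiomyocyte level, Fhl2 was the lowest in fibroblast-like cells of each library, at 2.95, 2.71 and 4.24%, where the median gene was at 20.4, 14 and 25.9%. In endothelial-like cells Actc1, Acta1, Myl2 and Myl3 were at or above their level in cardiomyocyte-like cells in each of the 3 libraries. Myl2 was at 2553, 1755 and 1823 CPM in endothelial-like cells, and subset 3 was the one subset to exceed this in each library, at 5981, 5381 and 3030 CPM. No measured gene in subset 3 was at or below its endothelial or fibroblast level in any library. The ratios of Myl2 and Myl3 to WT across cardiomyocyte-like cells went with a background that was also higher in Myh6-R404Q, 1.4-fold for Myl2 and 1.3-fold for Myl3 in endothelial-like cells, and its part in them was not tested. Myom2 in endothelial-like cells was 2.47-fold the WT level for Myh6-R404Q and 1.25-fold for Prkag2-p.R299Q. Tcap lay on the other side, at 277 and 301 CPM in endothelial-like cells of the mutants against 385 CPM in WT.

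Myl7, the atrial regulatory light chain (chromosome 11, 5896637 to 5898782), had its highest level among the classes compared in mesothelial-like cells. In mesothelial-like cells, which line the surface of the heart, it was at 65.2 CPM in Myh6-R404Q, 95.6 CPM in Prkag2-p.R299Q and 58.3 CPM in WT, from 253, 184 and 94 UMIs. Cardiomyocyte-like cells had 2.87, 1.22 and 1.44 CPM. Fibroblast-like cells had 7.68, 3.87 and 5.5 CPM, so that mesothelial-like cells stood 8.48-fold (5.66 to 13.2), 24.7-fold (13.8 to 48.7) and 10.6-fold (5.78 to 21.2) above them within the libraries. In the main mesothelial-like cluster, of 1311, 545 and 782 cells, Myl7 was at 58.8, 87.0 and 56.1 CPM and 12.9, 18.5 and 9.97% of cells had a UMI. A small and shallow second cluster of 54, 38 and 14 cells was at 687, 673 and 416 CPM, from 27, 19 and 4 UMIs. The other atrial chain, Myl4, did not share this pattern, with mesothelial to fibroblast ratios of 0.671, 0.941 and 0.966 and intervals that include 1.

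**Figure D5:**
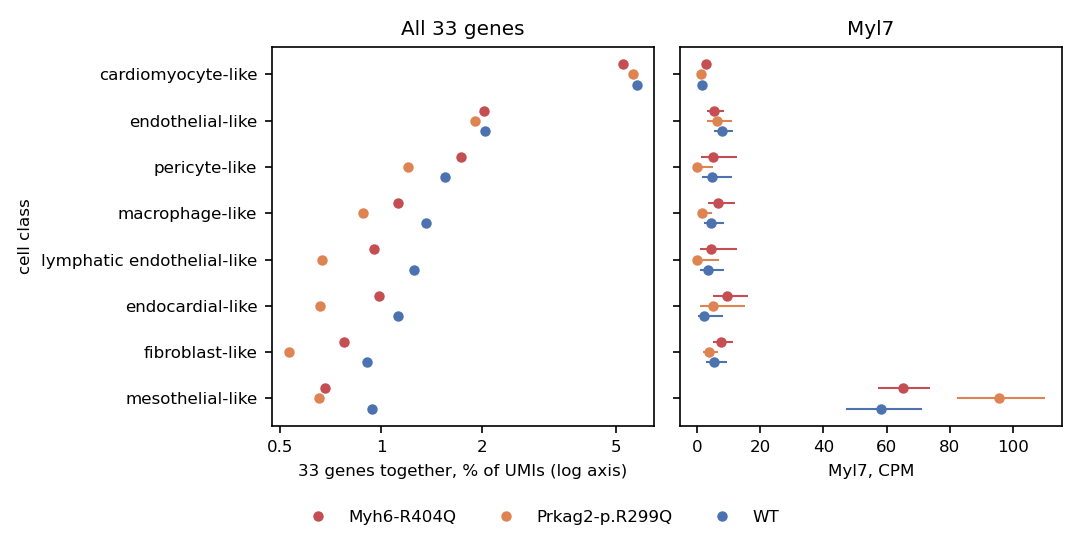
Left, share of UMIs in the 33 genes together, on a log axis, and right, Myl7 in CPM with exact Poisson 95% intervals, by cell class for Myh6-R404Q, Prkag2-p.R299Q and WT. The 33 genes are highest in cardiomyocyte-like cells at 5.26 to 5.77%, while Myl7 is highest in mesothelial-like cells at 58.3 to 95.6 CPM.

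Members differed in how high they stood in other classes. Relative to subset 3, Tmod1 was highest among the genes in macrophage-like cells of each library, at 49.9, 54.4 and 63.1% of the subset 3 level, where the median gene was at 15.8, 8.91 and 25.2%. Pdlim5 was highest in fibroblast-like cells of the mutants, at 29.1 and 25% against medians of 11.6 and 6.28%, and also in endothelial-like, mesothelial-like and endocardial-like cells of both mutants. Smooth muscle-like cells, with 53 Myh6-R404Q cells, 18 Prkag2-p.R299Q cells and 192 WT cells, are given as description. Myom1 was at 1803, 1064 and 1863 CPM there, which is 7.23, 4.35 and 6.77 times the pericyte level. Pdlim5 was 6.79, 2.89 and 5.32 times and Ldb3 4.6, 3.45 and 3.07 times the pericyte level, whereas Actc1 was below it in each library. Myom1 shares positions with Myl12a on the opposite strand, Xirp1 with the macrophage gene Cx3cr1 and Tnni3 with Dnaaf3 on the same strand, and whether the counting used strand is not stated in the labels or processing notes.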

How the data were processed

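Per the labels' protocols, collagenase-digested hearts were strained and loaded on a 10x Genomics 3′ kit. Reads were counted with Cell Ranger 7.0.1 on mm10, per the submitters' processing notes, and whether introns were counted is not stated in those notes. The authors deposited raw UMI counts, one value for each gene in each barcode, without normalization. In the Myh6-R404Q matrix, 7951 barcodes equal the Prkag2-p.R299Q file and 18033 the WT file with 0 entries that differ, and the other 12662 were used.

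Barcodes needed at least 500 UMIs, 300 genes and at most 20% mitochondrial UMIs. Scrublet in scanpy 1.11.5 called 17.1, 14 and 17.6% doublets in Myh6-R404Q, Prkag2-p.R299Q and WT, above the 10.1, 6.36 and 14.4% expected, and these were removed; free RNA was not. With the 33 genes left out, 2000 variable genes and 30 components were clustered with leidenalg 0.10.2 at resolution 0.8, and cardiomyocyte subsets at 0.5. Clusters were named from marker lists; classes with at least 200 cells per library were compared. UMIs were summed per class and given as CPM. Ratios carry exact conditional binomial 95% intervals, CPM exact Poisson ones. Log2 ratios used a pseudocount of 1 CPM. The interval and fold rule were run on simulated Poisson counts with known folds. The intervals assume such counts, so this run does not cover uneven spread over cells or animals. Gene positions are from a GENCODE annotation of mm10, upstream sequences from RefSeq in GRCm38.p6. The text names all 33 members by role, and of the other lists the 4 most abundant or any past 2-fold; 1 of these is not reported here. The members and lists were chosen with earlier results of these data known.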

Additional observations from a re-analysis of the deposited data

Results flagged for a closer look

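For 4 genes a ratio between libraries was past 1.5-fold in opposite directions in cardiomyocyte subsets, with counting intervals that exclude 1. The difference between subsets was not tested. Acta1 in Prkag2-p.R299Q was 3.72-fold the WT level in subset 3, 2.17-fold in subset 4 and 2.40-fold in subset 5, but 0.486-fold in subset 2, where 36 UMIs were counted in Prkag2-p.R299Q and 212 in WT. The subset 2 levels of 28.8 CPM in Prkag2-p.R299Q and 59.3 CPM in WT compare with 41.6 and 54.6 CPM in fibroblast-like cells of the same libraries. Xirp1 in Myh6-R404Q was 1.73-fold in subset 3 (1.14 to 2.66) and 0.197-fold in subset 2 (0.0236 to 0.732), the last from 2 UMIs in Myh6-R404Q against 98 in WT. Xirp1 in Prkag2-p.R299Q was 1.87-fold the WT level in subset 3 and 0.613-fold in subset 2. Ankrd23 in Myh6-R404Q was 2.39-fold the WT level in subset 4 and 0.638-fold in subset 2, and in Prkag2-p.R299Q 1.54-fold in subset 3 and 0.518-fold in subset 5. Synpo2l in Prkag2-p.R299Q was 2.34-fold the Myh6-R404Q level in subset 3 and 0.631-fold in subset 4. Subset 4 was led by endothelial genes and subset 5 had the highest doublet scores.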

How the results depend on the processing

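No paired analysis was possible because each genotype has 1 library. Across 11 alternatives, the ratios past 1.5-fold in cardiomyocyte-like cells stayed past it with 2 exceptions. Acta1 in Myh6-R404Q was at 0.751 of WT when cells were thinned to 1000 UMIs, and Myl3 in Prkag2-p.R299Q against Myh6-R404Q stayed past it in 2 of the 11 (0.65 to 0.713). Myom2 in Myh6-R404Q ranged from 2.75 to 3.24 and Ankrd1 in Prkag2-p.R299Q from 1.57 to 1.91. No called ratio changed direction in these alternatives.

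The median log2 ratio of the members moved to -0.18 in Myh6-R404Q with doublets kept. With thinned cells it was 0.14 for Myh6-R404Q and 0.17 for Prkag2-p.R299Q against WT, and 0.20 in Prkag2-p.R299Q against Myh6-R404Q. With the mean of the cells' own CPM it was 0.13 and 0.26 against WT, with the WT mix of subsets 0.12 in Prkag2-p.R299Q, and with median-of-ratios size factors 0.27 in Prkag2-p.R299Q against Myh6-R404Q, where the median of all genes shifts from -0.13 to -0.0024. The members' median in Myh6-R404Q thus changed sign between settings.

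The counts in this paragraph show how calls of members move with the setting. The share of all genes past 1.5-fold was not counted for the alternatives, so the counts set members against no other genes. The number of members at least 1.5-fold lower in Myh6-R404Q than in WT was 1 in the main setting. It was 2 with doublets kept, with at least 1000 UMIs per barcode, thinned, clustered with the members, at resolution 0.4, with the WT mix of subsets and without subsets 4 and 5, and 3 with size factors. In Prkag2-p.R299Q, 8 rather than 4 were higher than WT when cells were thinned. Against Myh6-R404Q, Prkag2-p.R299Q had 2 members higher with doublets kept, thinned, by the mean of cells, and at resolutions 0.4 and 1.2, and 3 with size factors. It had 1 lower with doublets kept, at least 1000 UMIs, thinned, size factors, the mean of cells, members clustered, resolutions 0.4 and 1.2 and the WT mix, and 4 with every gene with a UMI.

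The summed background level in fibroblast-like cells, as a ratio to WT, was 0.803 for Myh6-R404Q and 0.573 for Prkag2-p.R299Q with doublets kept, and 0.832 and 0.572 with at least 1000 UMIs. In macrophage-like cells it was 0.918 and 0.727 with doublets kept, 0.68 in Prkag2-p.R299Q with at least 1000 UMIs and 0.628 thinned. In endothelial-like cells of Myh6-R404Q it was 1.02 with doublets kept, 1.11 with at least 1000 UMIs and 0.89 thinned, and in Prkag2-p.R299Q 0.979 and 0.815 under the last pair of settings. In subset 3 of Prkag2-p.R299Q, the matching finer subset gave 2.58 for Acta1 and 2.04 for Ankrd1, and the coarser one 2.45 for Ankrd1. The cause of these shifts was not tested. The alternatives without subsets 4 and 5 and without the 10 highest cells were chosen after seeing the data.

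Thinned to 1000 UMIs, Myl7 gave no ratio to WT, where it had no UMI left. Depth limits Myl4, Myl7 and Xirp1, which rest on few UMIs in single subsets. Animals, dissociation and capture cannot be told apart from genotype.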
